A study of Homo sapiens with 5 samples.

Results

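Ephrin receptors are the Eph receptor tyrosine kinases, and ephrins are the membrane-bound ligands that activate them when cells touch. This account covers 10 genes of the family in MDA-MB-231 cells, chosen as a named list: the receptors EPHA2, EPHA4, EPHB2, EPHB3, EPHB4 and EPHB6 and the ligands EFNA1, EFNA4, EFNB1 and EFNB2. Of 47231 array probes, 11 carried the symbol of a member and stood for 9 of the 10 genes. No probe was matched to EPHB2 through the platform annotation used here. A probe was kept if its detection p was under 0.05 on at least 2 of the independent arrays, which left 9 member probes for 7 genes: EPHA2, EPHA4 and EPHB4 with 1 probe each, EFNA1 and EFNA4 with 2 each, and EFNB1 and EFNB2 with 1 each.

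The cells, MDA-MB-231, are an established line of human breast cancer, labelled as basal and negative for the estrogen receptor. The fluvastatin group had 2 samples given 10 µM fluvastatin, a statin that blocks the mevalonate pathway, for 24 h. The control group had 3 samples given water for 24 h. Both were grown in the same medium with serum, and RNA was read on Illumina bead arrays. The protocol label on treatment is the same mock-control wording for every sample, so the groups follow the titles and the characteristics. Nothing in the labels says that replicates came from separate cultures. The p-values rest on the spread between these samples, pooled in part over all kept probes, and that spread may be technical. In all 47231 probes the signal of control replicate 2 was the average of the other controls (tolerance 1e-06), and it was left out. The comparison therefore set fluvastatin replicates 1 and 2 against control replicates 1 and 3.

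Eph receptors fall into A and B classes. A-class ephrins are held in the membrane by a lipid anchor and B-class ephrins span it, and a contact can signal into the receptor-bearing cell (forward) and into the ephrin-bearing cell (reverse). Forward signals act largely on the actin cytoskeleton, and EPHA2 is often abundant in basal breast cancer, where it can also act without ligand. EFNA1 is a preferred ligand of EPHA2, and EFNB2 is the ligand of EPHB4.

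EPHA2, which was lower with fluvastatin, and EFNA1, which was higher, were the members whose changes passed the test, and the 250 bases before the start of each gene are shown here for that reason, 5′ to 3′ on the gene's strand. They come from RefSeq on build GRCh38.p14. The EPHA2 window is chr1:16156070-16156319 on the minus strand, and the EFNA1 window is chr1:155127626-155127875 on the plus strand. Capitals mark the letters of the motifs that were found.
EPHA2: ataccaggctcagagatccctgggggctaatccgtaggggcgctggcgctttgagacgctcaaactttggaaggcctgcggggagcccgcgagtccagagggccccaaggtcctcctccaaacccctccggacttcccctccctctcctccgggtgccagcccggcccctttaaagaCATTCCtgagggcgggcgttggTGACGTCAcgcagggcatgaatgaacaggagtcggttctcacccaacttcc
EFNA1: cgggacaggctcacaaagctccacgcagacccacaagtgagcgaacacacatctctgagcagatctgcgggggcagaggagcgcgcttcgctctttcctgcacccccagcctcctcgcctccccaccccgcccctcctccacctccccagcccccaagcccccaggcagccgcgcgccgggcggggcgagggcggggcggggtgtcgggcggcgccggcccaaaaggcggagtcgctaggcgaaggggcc

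Both strands of the windows of all 10 members (12 windows, since EPHA4 and EPHB2 have 2) were searched for the AP-1 motif TGACTCA, the E-box CACGTG, the TEAD-type motif CATTCC and the cyclic AMP response motif TGACGTCA. The last of these was added after the EPHA2 sequence had been read. The 2 EPHB2 windows, which start at 22710588 and 22710589, are nearly the same stretch. The EPHA2 window was the single one of the 12 with any match. It held CATTCC from 73 to 68 bases before the start and TGACGTCA from 51 to 44 bases before it, and the matches do not overlap. Of 35116 RefSeq windows of the same length, 11.9% held CATTCC on either strand, 1.65% held TGACGTCA, 4.20% held TGACTCA and 6.34% held CACGTG. The EFNA1 window held none of these motifs, which says only that the letters are not in this window. It was richer in G and C (73.2%, with 24 CpG) than the EPHA2 window (63.2%, with 15 CpG), while all windows had a median of 58% and 11 CpG. EFNA4, EFNA3 and EFNA1 lie next to each other on chromosome 1 among coding genes, apart from a read-through gene of EFNA4 and EFNA3.

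The arrays detected 46.9% and 44.9% of probes in fluvastatin replicates 1 and 2, and 46.1% and 43.0% in control replicates 1 and 3. The upper quartile of raw intensity was 196.7 and 187.4 on the fluvastatin arrays and 163.2 and 136.4 on the control arrays. Raw signals were thus brighter with fluvastatin in the upper part of the range. The median intensities were nearer each other, at 74.2 and 81.7 with fluvastatin and 74 and 72.7 in controls. Values below are log2 intensities after background correction and quantile normalization unless they are called raw. Fluvastatin arrays lay a median of 0.255 apart per probe on that scale and control arrays 0.129. Of markers of the line, all 5 expected (VIM, CD44, KRT18, SNAI2 and EGFR) had a probe detected on all 4 arrays, and ESR1, PGR and CDH1 were detected on no array. EPCAM, expected near background, was detected on all 4. Among 4 markers of other cell types, PTPRC and COL3A1 were detected on no array and COL1A1 on 2. The endothelial marker PECAM1 was detected on 3, at 6.60 and 5.54 with fluvastatin and 5.01 and 4.74 in controls (adjusted p = 0.0735 by limma). Its part in the results below was not tested.

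EPHA2 had the largest change and the smallest p of the kept member probes. Its raw signals were 224.5 and 206.1 with fluvastatin and 535.1 and 429.8 in controls. On the log2 scale it stood at 7.17 and 7.12 with fluvastatin, against 8.91 and 9.02 in controls, so the groups were far apart and the replicates of each close together. The means were 7.14 ± 0.03 and 8.97 ± 0.08 (SD, n = 2 each). The log2 fold change was -1.83 ± 0.15 (SE; limma, adjusted p = 0.00713), which leaves 0.282 of the control level. Among 12080 genes, of which 5901 were lower with fluvastatin, EPHA2 had the 66th largest fall. The change was -1.80 in fluvastatin replicate 1 and -1.85 in replicate 2. In a culture, fewer cells of a type and less RNA per cell cannot be told apart.

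EPHA2 kept its direction in each of 12 other settings (log2 fold change -1.87 to -1.45). In those that kept all 4 arrays its adjusted p was 0.0154 or less (limma). The lowest, 4.83e-06, came with median scaling, where the fit gave all kept member probes the same SE (0.296). That value cannot be set beside the others. By distance between centred log2 values over the 4 arrays, the genes most like it were HELLS, a chromatin remodeller (distance 0.0343, log2 fold change -1.80), the small nucleolar RNA SNORD30 (0.0549, -1.82) and ABCE1, a ribosome recycling factor (0.103, -1.78). Over 4 arrays this measure mostly matches the size of the fall.

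EPHA4, a receptor that binds ephrins of both classes, was dim. Its raw signals were 92.2 and 89.8 with fluvastatin and 107.9 and 88.4 in controls, and on this scale the groups overlapped. Its log2 values were 5.29 and 5.04 with fluvastatin and 5.95 and 5.63 in controls, with no overlap. The log2 fold change of -0.62 ± 0.19 (SE; 95% interval -1.10 to -0.15, limma adjusted p = 0.0767) did not pass. It was -0.25 without background correction and also in the authors' values.

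Of the B-class receptors, EPHB4, known for its role with EFNB2 in arterial and venous vessels, was measured well above background. Its raw signals were 562.6 and 519.5 with fluvastatin and 379.9 and 293.9 in controls. The log2 values were 8.73 and 8.78 with fluvastatin and 8.39 and 8.40 in controls, so the raw and normalized values of the groups did not overlap. The log2 fold change of 0.36 ± 0.15 (SE; 95% interval -0.01 to 0.73, limma adjusted p = 0.147) did not pass. With each array scaled on the median of all probes it was 0.61, or 0.42 relative to the shift of 0.19 of the kept probes in that scaling.

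EPHB3 and EPHB6 were not above background on any array. EPHB3 had raw signals of 67.1 and 70.8 with fluvastatin and 76.3 and 65.6 in controls, with a lowest detection p of 0.0546, just outside the limit. EPHB6, a family member without kinase activity, had raw signals of 53.9 and 64.5 with fluvastatin and 59.1 and 60.3 in controls. No fold change is given for either.

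EFNA1, the ephrin first found as a gene induced by tumour necrosis factor in endothelium, was higher with fluvastatin by both of its probes. The brighter probe (ILMN_2371055) had raw signals of 633.6 and 646.5 with fluvastatin and 353.4 and 257.4 in controls. Its log2 values were 8.93 and 9.11 with fluvastatin and 8.27 and 8.17 in controls, and the groups did not overlap. The log2 fold change was 0.80 ± 0.16 (SE; limma, adjusted p = 0.0290), a linear ratio of 1.74, and it ranked 1118th among the 6179 genes that were higher.

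The dimmer EFNA1 probe (ILMN_2371053) had raw signals of 176.1 and 145.5 with fluvastatin and 85.4 and 87.2 in controls. It stood at 6.70 and 6.37 with fluvastatin and 5.24 and 5.58 in controls on the log2 scale, again without overlap. Its log2 fold change of 1.12 ± 0.21 (SE; limma, adjusted p = 0.0240) was 0.55 without background correction and 0.54 in the authors' values, with adjusted p of 0.0233 and 0.0261. Neither EFNA1 probe passed without control replicate 1 (adjusted p = 0.169 for the brighter, 0.142 for the dimmer) or without control replicate 3 (0.232 and 0.0763), and the dimmer one also not without fluvastatin replicate 1 (0.0549). Without either control array the share of all kept probes that passed was also low, 2.13% and 1.97%.

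EFNA4, the neighbouring A-class ligand, had 2 probes that gave like values. The log2 values of ILMN_1665696 were 7.39 and 7.14 with fluvastatin and 7.45 and 7.42 in controls, a log2 fold change of -0.17 (95% interval -0.58 to 0.24, limma adjusted p = 0.509). ILMN_1755710 stood at 6.78 and 6.70 with fluvastatin and 7.0 and 6.86 in controls, a change of -0.19 (-0.57 to 0.20, adjusted p = 0.440). Neither passed, their raw signals overlapped between the groups, and their sign turned with median scaling (0.13 and 0.14, where all kept probes shifted by 0.19). EFNA3, which lies between EFNA4 and EFNA1, was detected on no array.

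EFNB2, a B-class ligand that spans the membrane, had log2 values of 7.98 and 8.47 with fluvastatin and 9.05 and 8.87 in controls. The groups did not overlap on that scale, but the raw signals did, at 359.3 and 435.0 with fluvastatin and 579.9 and 391.7 in controls. The log2 fold change of -0.74 ± 0.21 (SE; 95% interval -1.27 to -0.21, limma adjusted p = 0.0687) did not pass. It was -0.98 in fluvastatin replicate 1 and -0.49 in replicate 2. In 5 of 12 other settings it passed, each with a larger share of all kept probes past the threshold than the 16.9% of the reported setting. Among them were the authors' values (-0.65, limma adjusted p = 0.0326), where that share was 22.1%. Another was the fit that counted the mean of the other controls as a control, with a share of 40.6%. Without fluvastatin replicate 2, which had the smaller change, the log2 fold change was -0.98.

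EFNB1, the other B-class ligand, was close to background, just inside the limit, with detection on 3 of 4 arrays and a detection p of 0.0922 on fluvastatin replicate 2. Its raw signals were 83.0 and 81.9 with fluvastatin and 82.8 and 78.4 in controls. The log2 fold change was -0.23 ± 0.17 (SE; 95% interval -0.64 to 0.19, limma adjusted p = 0.385), so no difference was detectable at this signal.

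**Figure D1:**
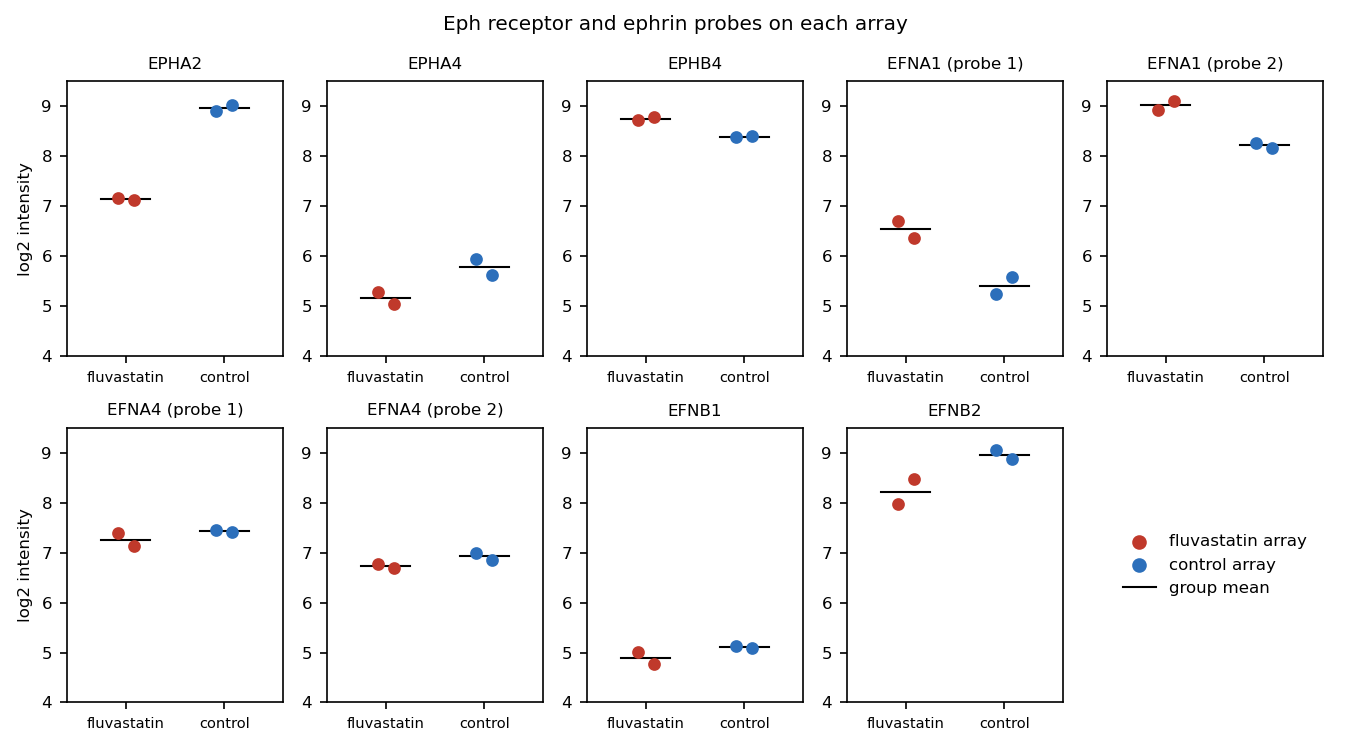
Log2 intensity (vertical axis) of each kept Eph receptor and ephrin probe on the 2 fluvastatin arrays (red, left) and the 2 independent control arrays (blue, right), with group means as lines. EPHA2 lies at 7.17 and 7.12 with fluvastatin, below 8.91 and 9.02 in controls, and both EFNA1 probes lie above their controls (probe 1 is ILMN_2371053 and probe 2 ILMN_2371055; for EFNA4 probe 1 is ILMN_1665696).

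Of the 9 kept probes, 2 (both of EFNA1) were higher, 1 (EPHA2) was lower and 6 did not pass, in a table where 16.9% of all kept probes passed, 8.64% higher and 8.29% lower. By gene, 1 of 7 was higher and 1 lower, against 20.1% of 12080 genes that passed, 10.5% higher and 9.65% lower. On the log2 scale the groups did not overlap for any of the 9 probes, which held for 64.7% of all kept probes. The median log2 fold change of the 7 genes was -0.23, and that of all 12080 genes was 0.01. The receptor probes ranged from -1.83 to 0.36 and the ligand probes from -0.74 to 1.12, so either kind had values on both sides of 0.

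**Figure D2:**
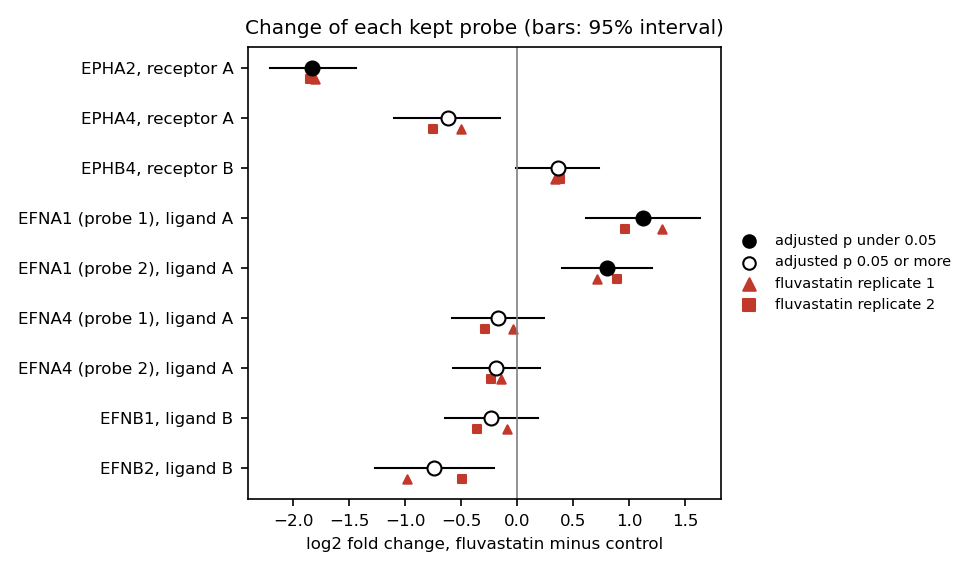
Log2 fold change, fluvastatin minus control, of each kept probe (circles, filled where the adjusted p is under 0.05) with its 95% interval, and the change of each fluvastatin replicate from the control mean (red triangle, replicate 1; red square, replicate 2). The intervals of EPHA2 and of both EFNA1 probes lie on opposite sides of 0, and the replicates of EFNB2 lie at -0.98 and -0.49.

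The changes of receptor and ligand were also set side by side for 2 known pairs. The change of EFNA1 (brighter probe) exceeded that of EPHA2 by 2.63 on the log2 scale, and by 2.24 in raw signals, where no scaling between arrays enters. The change of EPHB4 exceeded that of EFNB2 by 1.10, and by 0.96 in raw signals, though neither gene passed on its own. Both pairs were chosen after their values were known. For each of them an exact permutation test over the 4 arrays, two-sided, gave p = 0.333, the smallest that 2 against 2 arrays allow. Since the test could not give less and the pairs were chosen with their values known, it decides nothing about them.

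**Figure D3:**
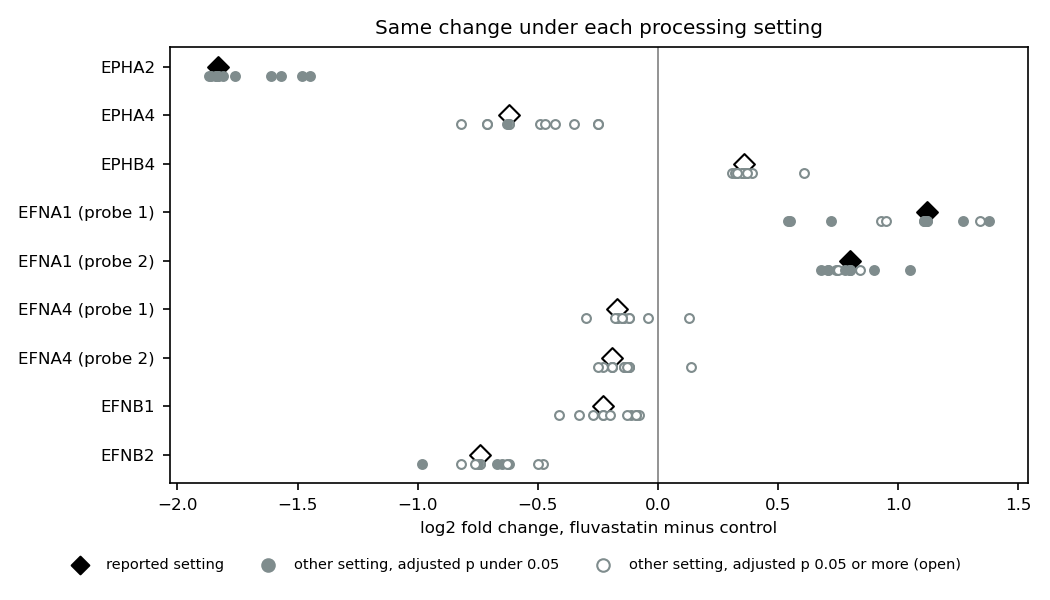
Log2 fold change of each kept probe in the reported setting (diamonds) and in other settings of filter, background correction, scaling, value source and arrays (circles; filled where the adjusted p is under 0.05). EPHA2 stays between -1.87 and -1.45, and the EFNA4 probes are the ones that cross 0, with median scaling.

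Of the other 12 Eph and ephrin genes, 4 had a kept probe (EPHA8, EPHA10, EFNA5 and EFNB3). EFNB3, at 5.32 and 5.45 with fluvastatin, was not above background in controls (4.59 and 4.88). EFNA5, at 5.12 and 5.21 with fluvastatin, was not above background in controls either (4.69 and 4.97). The probes of both genes, and the dimmer of the 2 kept probes of EPHA10, were kept only through their detection on the fluvastatin arrays, which favours higher values there, so no fold change or test is given for them. The brighter EPHA10 probe, detected on all 4 arrays, stood at 5.84 and 6.95 with fluvastatin and 6.99 and 7.10 in controls (log2 fold change -0.65, limma adjusted p = 0.253). EPHA8, dim and detected on 3 of 4 arrays, stood at 5.54 and 4.67 in controls, with a detection p of 0.206 on control replicate 3. It had a log2 fold change of 0.16 (limma adjusted p = 0.734). Neither passed.

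Of kinases and adaptors of forward signalling, 1 of 16 measured genes was higher and 0 lower by limma at the adjusted threshold, with a median log2 fold change of 0.04, against 0.01 over all genes. The median of this list was between -0.03 and 0.12 with 1 array left out, -0.03 being without fluvastatin replicate 2, and -0.04 with scaling on the median of detected probes. The gene that passed was GRB10, an adaptor that binds receptor tyrosine kinases, at 9.08 and 9.21 with fluvastatin and 8.25 and 8.23 in controls (log2 fold change 0.91, limma adjusted p = 0.0203). Another probe of GRB10 gave 0.95 (adjusted p = 0.0208), and the dimmest gave 0.13 (0.604). SRC (0.31), FYN (-0.03) and PTK2 (0.07), kinases that carry Eph signals, did not pass.

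Among partners of ephrin-B reverse signalling, 1 of 8 was higher and 0 lower, with a median of 0.10. The median was 0.17 without fluvastatin replicate 1, 0.03 without control replicate 1 and 0.20 without control replicate 3, and 0.28 where a gene's probes were averaged. DVL2, a Dishevelled protein, was at 8.74 and 8.65 with fluvastatin and 7.91 and 8.02 in controls (log2 fold change 0.73, limma adjusted p = 0.0326). SDCBP (syntenin-1), which binds the tail of B-class ephrins, was at 0.53 (adjusted p = 0.0684).

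Of proteases, phosphatases and ubiquitin ligases that act on Ephs and ephrins, 2 of 14 were higher and 0 lower, with a median of -0.14. That median turned to 0.06 without fluvastatin replicate 2 and to 0.09 with median scaling, and was -0.07 without control replicate 1. CBLB, a ubiquitin ligase of receptor tyrosine kinases, was at 8.97 and 8.56 with fluvastatin and 7.5 and 7.55 in controls (log2 fold change 1.24, limma adjusted p = 0.0169). The sheddase ADAM17 was at 9.49 and 8.53 with fluvastatin and 7.58 and 7.59 in controls, with 1.42 by that probe (adjusted p = 0.0373) and 0.98 and 0.97 by its other probes (0.0406 and 0.0530). ADAM10, which cleaves ephrins, was at 0.13 (adjusted p = 0.611). At an unadjusted limma p under 0.05, 1 of the kinases and adaptors was higher and 0 lower. Of the ephrin-B partners 2 were higher and 0 lower. Of the proteases, phosphatases and ligases 4 were higher and 1 lower (PTPN1, a phosphatase, at -0.38). The share of all genes at that level was not counted, but it is at least the 20.1% that passed at the adjusted threshold. Without that share these counts say nothing particular about the lists. Over these 3 lists 4 genes were higher and 0 lower by limma at the adjusted threshold. Of all genes, 10.5% were higher and 9.65% lower. No list had a larger share of genes past the adjusted threshold than the 20.1% of all genes.

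**Figure D4:**
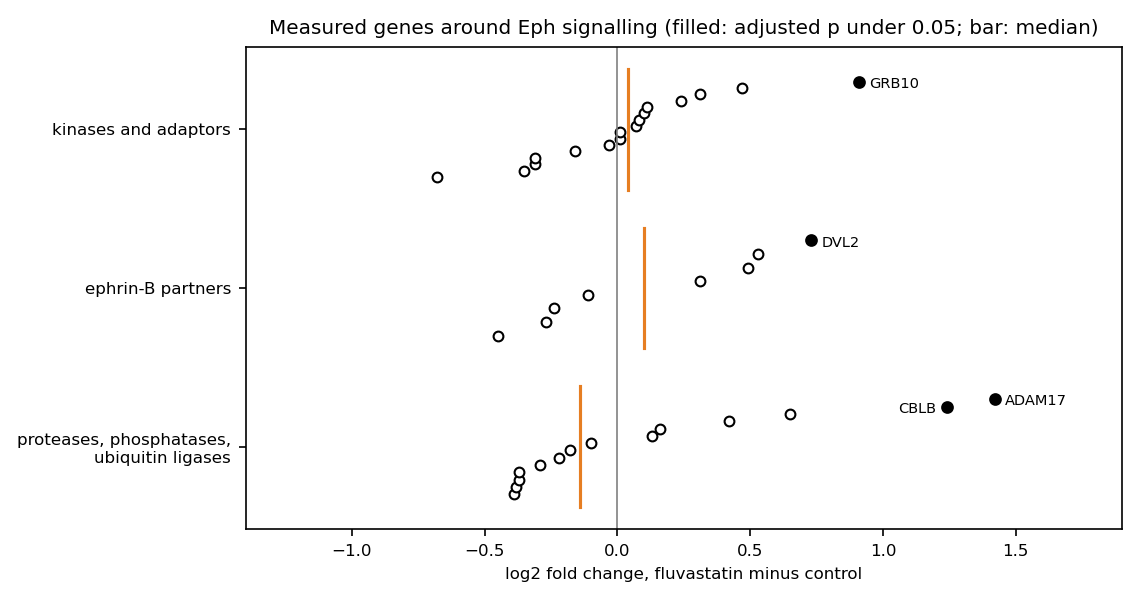
Log2 fold change, fluvastatin minus control, of the measured genes of each list (one circle a gene, its brightest kept probe; filled where the adjusted p is under 0.05; orange bar, list median). The list medians lie between -0.14 and 0.10, with other settings moving or turning each. The 4 genes that pass are higher with fluvastatin. Of all genes, 10.5% were higher and 9.65% lower.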

How the data were processed

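The deposited raw table holds, per the file headers, 1 intensity and 1 detection p-value per probe and sample, without normalization as far as the values show. The authors' log2 values, in a separate deposited table, were used as an alternative. The submitters' processing notes list R 3.1.0; the package and the normalization are not given in the sources used here. Intensities of the 4 independent arrays were background-corrected by normexp from the detection p-values (nec of limma 3.58.1, R 4.3.3, offset 16), quantile-normalized and put on log2. A probe was kept (21986 of 47231) where its detection p was under 0.05 on 2 or more of them. A two-sided limma test (lmFit, then eBayes) compared the groups, with p-values adjusted by Benjamini-Hochberg over all kept probes and a threshold of 0.05. The fit had 2 residual and 3.72 prior degrees of freedom. With 2 arrays a group, the number of arrays limits the precision.

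Of all per-sample columns, 0 were left unused. Symbols came from the platform annotation and, for all 11 member probes, matched a RefSeq gene table through the gene identifier. In the gene lists, a gene is its kept probe of highest mean. The files name no genome build, so only the promoter windows carry coordinates. The fit was run on simulated data with planted changes as a check of their direction. That run does not measure the error rate of the test on these arrays. The members and lists were chosen with earlier results of these data known. Genes named are all members, up to 4 past the threshold per list, the 3 most like EPHA2, and others that were chosen after their values were seen. One further gene list is not reported here.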

Additional observations from a re-analysis of the deposited data

How the results depend on the processing

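Among 12 other settings, EPHA2 and EFNA1 kept their direction in each. EFNA4 turned with median scaling, to 0.13 (ILMN_1665696) and 0.14 (ILMN_1755710), or -0.07 and -0.05 relative to the shift of all kept probes. Of all kept probes, 16.9% passed in the reported setting. The share was 22.2% without background correction, 21.9% with an offset of 50, 22.1% in the authors' values and 40.6% with all 5 columns. Beside those shares, member probes lower numbered 2 without background correction, with an offset of 50 and in the authors' values. With all 5 columns 3 member probes were lower and 3 higher. Without 1 array, 0 to 2 were higher and 1 to 2 lower. Beside the same shares, 1 of the genes of the 3 pathway lists was lower without background correction and in the authors' values. With all 5 columns 10 of these genes were higher and 4 lower. Without 1 array 0 to 8 were higher and 0 to 2 lower. Median scaling, which shifted all kept probes by 0.19, moved the list medians from 0.04 to 0.24 (kinases and adaptors), from 0.10 to 0.41 (ephrin-B partners) and from -0.14 to 0.09 (proteases, phosphatases and ligases). Over all kept probes, 1899 were higher and 1823 lower. Median scaling gave 3353 and 961, all 5 columns 4500 and 4427, and leaving out 1 array 225 to 3454 and 208 to 3592. Scaling on the median of detected probes, added after the data were seen, gave 1459 and 1767. Fits with all 5 columns count the mean of the other controls as a control, and those without 1 array have 1 residual degree of freedom and assume that a lone array varies like the other group. The cause of the changes between settings was not tested. EPHA4, EFNB1 and the dimmer EFNA1 probe had low signal. They gave -0.25, -0.08 and 0.55 without background correction, against -0.62, -0.23 and 1.12 with it. EPHA2 and EFNB2, which were brighter and had 1 probe each, gave -1.45 and -0.62 without it, against -1.83 and -0.74. No paired analysis was possible because the labels name no pairs of control and fluvastatin arrays.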
